A study of Mus musculus with 6 samples.

Results

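Diacylglycerol kinases are a family of lipid kinases, and 8 of their genes are described here: Dgka, Dgkb, Dgkd, Dgke, Dgkg, Dgkh, Dgkq and Dgkz. Their members were taken by gene name among the probes that are not controls on the array, which gave 16 of the 41174 probes. After the filters on signal, 11 of 27454 probes and 7 of 19225 genes were left, and Dgkb was the gene without a usable probe. The family was chosen by its log2 ratios between cells with and without VIP on these same arrays, so those ratios, and the counts of members past the threshold of the fit across all genes, are a description and no independent test of the family.

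The study set resting CD4 T cells of the mouse spleen that were given vasoactive intestinal peptide (VIP) against cells left without it. VIP is a neuropeptide whose receptors on lymphocytes raise cyclic AMP. Each of 6 2-colour Agilent arrays held 1 sample with and 1 without VIP, labelled together as a biological replicate. Pairing here means a shared array. The dyes were swapped from array to array. Both groups were C57BL/6J cells from males and females aged 6 to 32 weeks, with 5 to 10 spleens pooled for a sample, purified with anti-CD4 magnetic beads. The sources used here do not give the dose or duration of VIP. The RNA of VIP-treated cells was in Cy5 on the odd-numbered replicates (1, 3, 5) and in Cy3 on the even-numbered ones (2, 4, 6). The arrays lay in pairs on 3 slides, and each slide held both dye orientations.

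A diacylglycerol kinase adds phosphate to diacylglycerol (DAG) and so turns it into phosphatidic acid. DAG is the membrane signal that phospholipase C makes after receptor engagement, and it recruits protein kinases C, protein kinases D and the Ras activators of the RasGRP family. In T cells the alpha and zeta kinases, encoded by Dgka and Dgkz, are known for limiting DAG signals below the T cell receptor. Mammalian members fall into types by their domains: calcium-binding EF hands in type I (Dgka, Dgkb, Dgkg), pleckstrin homology domains in type II (Dgkd, Dgkh), and ankyrin repeats in type IV (Dgkz). Dgke is the type III member, with a preference for DAG that carries arachidonate, and Dgkq is the type V member.

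The 60-base probes behind the results are shown here because the value of each gene is that of 1 of them, its brightest, and a second probe is reported beside it. They are printed from 5′ to 3′ as they stand in the deposited array files, with positions in mm9. The letters AATAAA, the common form of the signal for cutting and polyadenylating a transcript, are in capitals wherever a probe contains them.
Dgka, chr10:128157256-128157315, minus strand: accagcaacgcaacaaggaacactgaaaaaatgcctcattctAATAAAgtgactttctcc
Dgkd, brighter probe, chr1:89840990-89841049, plus strand: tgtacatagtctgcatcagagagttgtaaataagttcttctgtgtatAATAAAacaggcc
Dgkd, second probe, chr1:89841128-89841187, plus strand: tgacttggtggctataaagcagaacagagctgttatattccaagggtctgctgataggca
Dgkh, brighter probe, chr14:78969897-78969956, minus strand: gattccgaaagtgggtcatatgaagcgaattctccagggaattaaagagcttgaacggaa
Dgkh, second probe, chr14:78998209-78998268, minus strand: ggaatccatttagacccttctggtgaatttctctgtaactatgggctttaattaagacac
Dgkz, chr2:91773236-91773295, minus strand: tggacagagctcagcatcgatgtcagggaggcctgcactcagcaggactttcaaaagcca

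The hexamer was in 2 of the 16 diacylglycerol kinase probes, against 4.78% of all probes, read on the probe's own strand. The 2 Dgkd probes start 138 bases apart, and the second lies beyond the hexamer of the first in the direction of the transcript. The 2 Dgkh probes lie on the same strand and start 28312 bases apart. None of the 16 probes shared a stretch of 20 bases with any other probe of the array. No exon annotation of mm9 was used here, so exon, intron and UTR are not given for these positions. A second probe of Dgke, at chr11:88911758-88912009, spans 252 bases of the genome with its 60 letters, so its letters are not contiguous there.

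In the fit across all genes, Dgkd and Dgkz were lower and Dgkh was higher with VIP, by 1.12-fold for Dgkz, 1.15-fold for Dgkd and 1.20-fold for Dgkh. These 3 of the 7 measured genes passed the threshold of that fit, a Benjamini-Hochberg adjusted p under 0.05 by limma. Over all genes 3.09% passed, 1.72% higher and 1.37% lower with VIP. Nothing is read from that comparison, because the same contrast was known when the family was picked. In the fit across all probes, 3 of the 11 diacylglycerol kinase probes passed, where 2.88% of all probes did. The median log2 ratio of the 7 genes was 0.003 and the median of its size 0.12, beside -0.0048 and 0.048 over all genes. A lower ratio in these bulk samples can come from fewer cells of a type or from less RNA per cell, which cannot be told apart.

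The calls depend strongly on the processing. Of 19 alternatives, 2 called all of Dgkd, Dgkz and Dgkh, 4 called 2 of them, 3 called 1 and 10 called none. The scanner software's processed signals and the authors' deposited value table gave the same ratios for these 3 genes. They are counted as 2 alternatives here and below, both among the 10 that called none. Without replicate 1, 4, 5 or 6 no diacylglycerol kinase gene was called, without replicate 2 Dgkh alone, and without replicate 3 both Dgkd and Dgkh. The signs of the 3 genes were the same in all 19 alternatives.

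**Figure D1:**
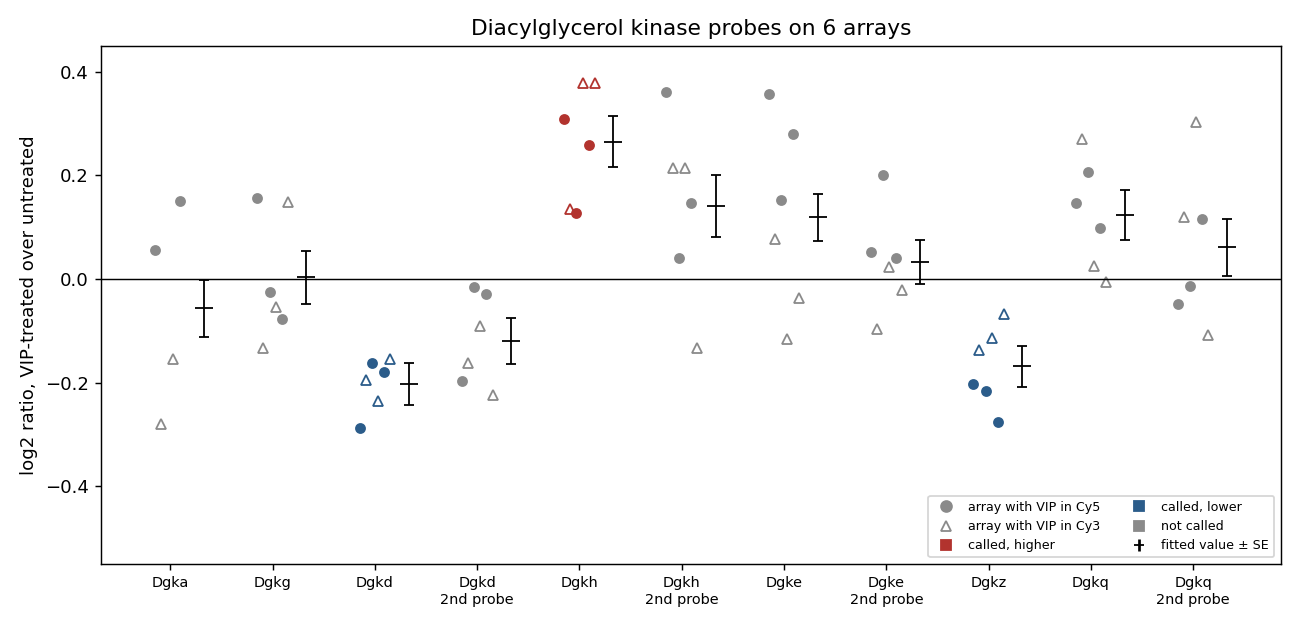
The log2 ratio of the VIP channel over the untreated channel is plotted for the 11 kept diacylglycerol kinase probes, with 1 point per array (filled circles, VIP in Cy5; open triangles, VIP in Cy3) and a bar for the fitted value ± SE. All 6 points of Dgkz and of both Dgkd probes lie below 0, all 6 of the brighter Dgkh probe lie above it, and the points of Dgka split by dye.

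Dgka, a type I kinase, had 1 probe, and its value rests on 4 arrays because the scanner software marked its spot as an outlier on replicates 3 and 6. The log2 ratio was 0.055 on replicate 1, -0.28 on replicate 2, -0.15 on replicate 4 and 0.15 on replicate 5. The sign followed the dye: VIP was above untreated on both arrays where it carried Cy5 and below on both where it carried Cy3. With the dye term the fitted ratio was -0.057 ± 0.055 (SE, n = 4 arrays), with a 95% interval from -0.18 to 0.068. The probe was well above background in both channels on all 6 arrays and saturated on none. Under the 15 alternatives that gave a value, the ratio ran from -0.11 to -0.038.

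Dgkg, also of type I, stood at 0.003 ± 0.051 (SE, n = 6 arrays), with a 95% interval from -0.11 to 0.11. Its ratios ran from -0.13 to 0.16, above 0 on 2 arrays and below it on 4. The second Dgkg probe was not well above background on any array. Dgkb, the third type I gene, had 4 probes. In the VIP channel they were well above background on 4, 1, 0 and 0 of the 6 arrays, and in the untreated channel on 2, 0, 0 and 0. The first of them met the filter on signal but was marked as an outlier on replicates 2 and 6, which left 1 array with VIP in Cy3 where 2 were required. The other 3 did not meet the filter on signal, so Dgkb was not tested and no fold is given for it.

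Dgkd encodes the delta kinase, a type II member. Its brighter probe gave log2 ratios of -0.29, -0.20, -0.16, -0.24, -0.18 and -0.16 on replicates 1 to 6, so VIP was below untreated on every array. The fitted ratio was -0.20 ± 0.040 (SE, n = 6 arrays), or 1.15-fold lower, with a 95% interval from -0.29 to -0.11. The means within the 3 slides, where the dye effect cancels, were -0.24, -0.20 and -0.17. The second probe, downstream of the first, gave -0.12 ± 0.044 (SE, n = 6) and was also below 0 on 6 of 6 arrays, from -0.23 to -0.015, but it was not called in the fit across probes. With the mean of both probes Dgkd stood at -0.16 and was not called.

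Dgkh encodes the eta kinase, the other type II member measured. The ratios of its brighter probe were 0.31, 0.14, 0.13, 0.38, 0.26 and 0.38 on replicates 1 to 6, so VIP was above untreated on every array. The fitted ratio was 0.26 ± 0.048 (SE, n = 6 arrays), or 1.20-fold higher, with a 95% interval from 0.16 to 0.37. Within the slides the means were 0.22, 0.25 and 0.32. The second probe, 28312 bases away, gave 0.14 ± 0.059 (SE, n = 6), was higher on 5 of 6 arrays and was not called in the fit across probes. Its slide means were 0.29, 0.13 and 0.007, so on the third slide the 2 probes differed most. With the scanner software's processed signals or the authors' deposited value table this second probe stood at 0.35, with a normexp offset of 0 at 0.30, and without replicates 3 and 6 at 0.23. Within type II, the brighter probe of Dgkd was lower and that of Dgkh higher with VIP on each of the 6 arrays.

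Dgke, the type III gene, had a fitted ratio of 0.12 ± 0.046 (SE, n = 6 arrays) and did not pass the threshold. Its ratios were 0.36, 0.15 and 0.28 where VIP carried Cy5 and 0.077, -0.12 and -0.037 where VIP carried Cy3. The second Dgke probe, the one whose letters are not contiguous in the genome, gave 0.033 ± 0.043 (SE, n = 6). Both probes lay above 0 on 4 of 6 arrays, and their mean gave 0.076.

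Dgkz encodes the zeta kinase, the type IV member. Its single probe gave ratios of -0.20, -0.14, -0.22, -0.11, -0.28 and -0.067 on replicates 1 to 6, below 0 on every array. The fitted ratio was -0.17 ± 0.039 (SE, n = 6 arrays), or 1.12-fold lower, with a 95% interval from -0.26 to -0.083. The slide means were -0.17, -0.17 and -0.17, closer together than those of Dgkd or Dgkh. The 3 arrays with VIP in Cy5 gave the 3 lowest ratios. Dgkz passed the threshold under 3 of 19 alternatives, those that changed the filter on dim probes and the one that averaged the probes of each gene. It was lost without any 1 of the 6 replicates, at ratios from -0.18 to -0.16.

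Dgkq, the type V gene, had a fitted ratio of 0.12 ± 0.048 (SE, n = 6 arrays), with ratios from -0.006 to 0.27, and did not pass the threshold. Replicate 6 gave the only ratio below 0, and without replicate 2 the fitted ratio was 0.080. Its second probe, which starts 608 bases from the first, gave 0.061 ± 0.055 (SE, n = 6) and was split evenly, with 3 arrays above 0 and 3 below.

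Dgkd, Dgkz and Dgkh each kept 1 sign over the 6 arrays, and among all genes measured on 6 arrays 7.03% had 1 sign throughout. In terms of level, the ranges of the VIP-treated and untreated samples overlapped for 11 of the 11 kept probes. For the brighter Dgkd probe the 6 VIP-treated levels ran from 14.2 to 15.1 (median 14.7) and the untreated ones from 14.5 to 15.3 (median 14.9) in log2 normalised intensity. For Dgkz they ran from 11.8 to 12.5 (median 11.9) with VIP and from 11.8 to 12.6 (median 12.2) without it. For Dgkh they ran from 8.35 to 8.87 (median 8.57) with VIP and from 8.02 to 8.62 (median 8.29) without it. The ratio within an array therefore varied less than the level did: for Dgkd the ratio spanned 0.13 while the VIP-treated levels spanned 0.88. This held for 8 of the 11 probes, the exceptions being Dgka, the brighter Dgke probe and the second Dgkh probe. Levels of different probes are not set against each other here, since probes differ in brightness for the same amount of RNA.

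**Figure D2:**
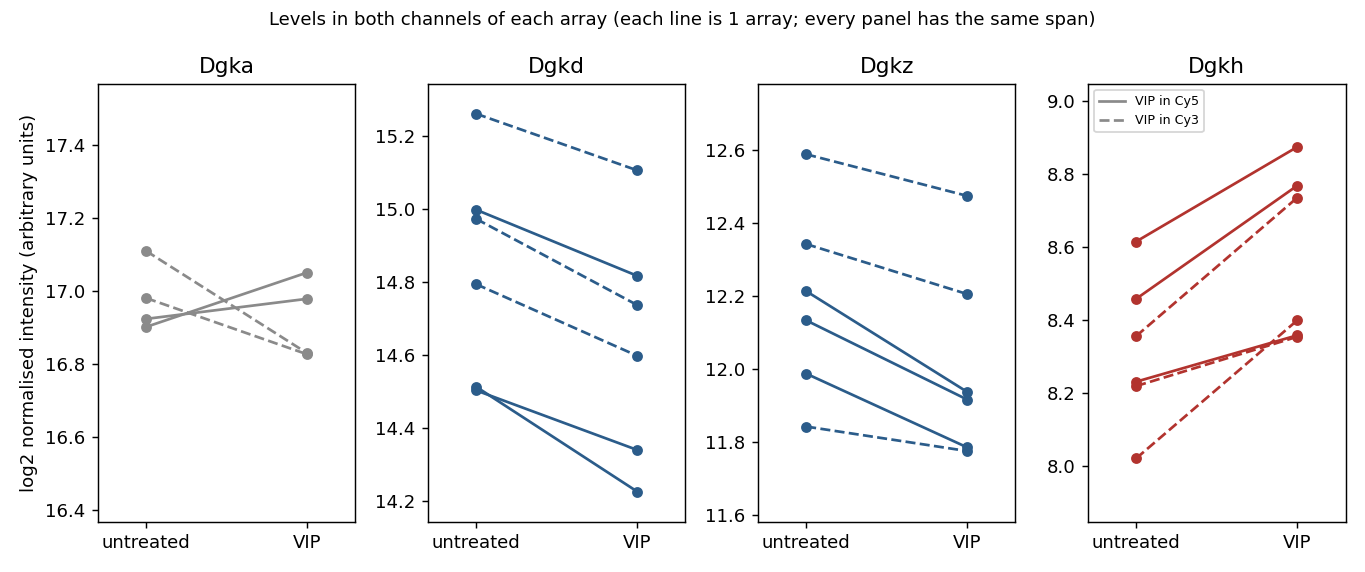
Log2 normalised intensity of Dgka, Dgkd, Dgkz and Dgkh in the untreated and the VIP-treated channel, with 1 line per array (solid, VIP in Cy5; dashed, VIP in Cy3) and the same span in each panel. All 6 lines fall for Dgkd and Dgkz and all 6 rise for Dgkh, while the groups of points overlap; the 4 lines of Dgka cross.

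The size of the 3 differences changed less between alternatives than the calls did. Dgkd ran from -0.26 to -0.16 and was called under 5 of 19 alternatives: without replicate 3, with slide as a block, with either changed filter on dim probes, and with outlier spots kept for the loess curve alone. Dgkh ran from 0.20 to 0.33 and was called under 9 of 19. Dgkz ran from -0.18 to -0.16. With the authors' deposited value table and the same test none of the 3 was called, at -0.18, -0.17 and 0.33 for Dgkd, Dgkz and Dgkh.

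**Figure D3:**
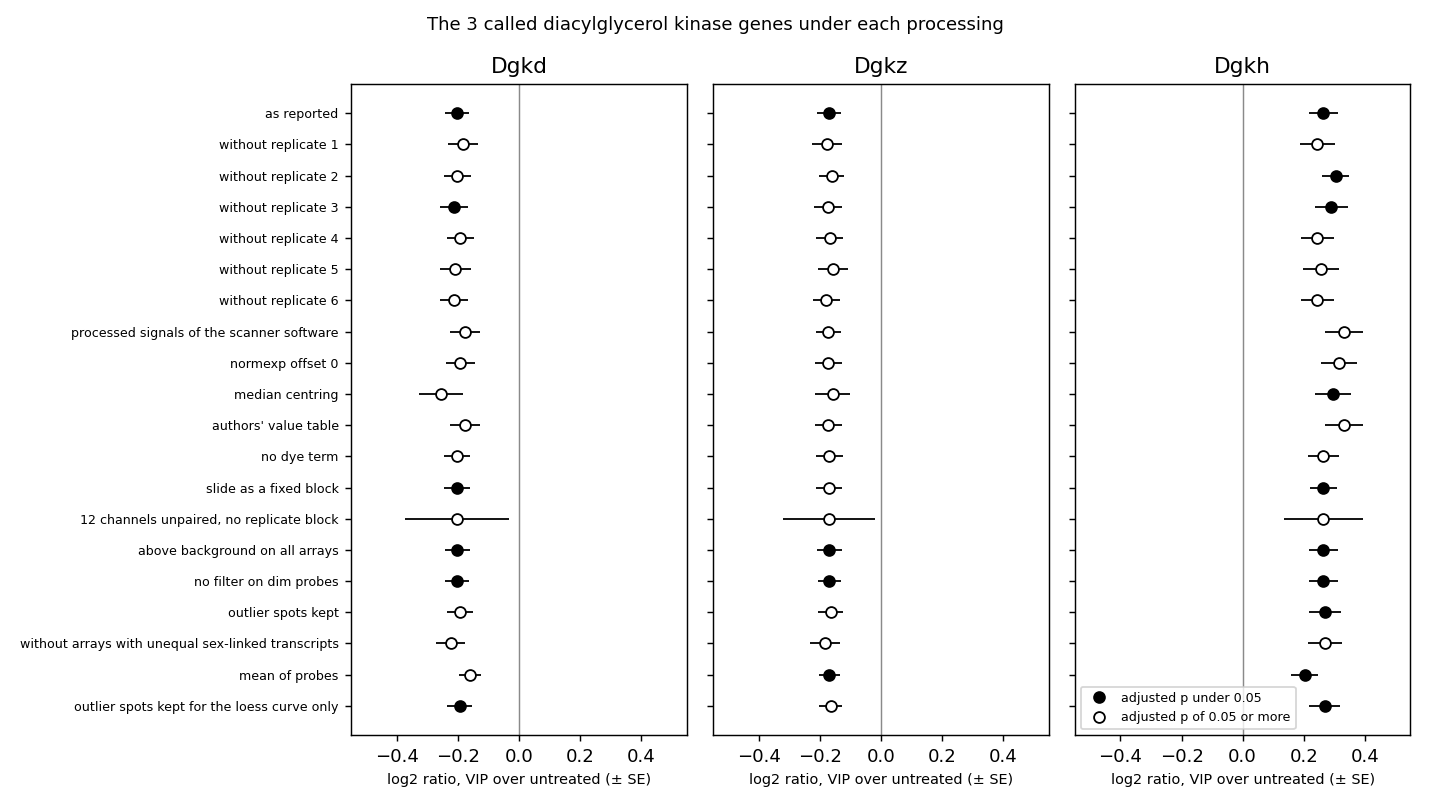
Fitted log2 ratio ± SE of Dgkd, Dgkz and Dgkh as reported (top) and under each of 19 alternatives (1 per line), with filled points where the adjusted p was under 0.05. The points stay on 1 side of 0 in every panel, and filled points are fewest for Dgkz.

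On replicates 3 and 6 sex-linked transcripts differed between the VIP-treated and the untreated sample, with log2 ratios of Xist of -6.12 and 2.03, while on the other 4 arrays Xist lay between -0.08 and 0.34. The Y-linked Ddx3y went the other way on replicates 3 and 6, at 2.04 and -3.96. On these 2 arrays the paired samples did not match in sex-linked RNA, so the pairing there is only that of a shared array. Without those 2 arrays Dgkd stood at -0.23, Dgkz at -0.18 and Dgkh at 0.27, and none was called. Of the 10 CD4 T cell markers looked up (among them Cd3d, Cd4 and Lck), 10 were well above background on all arrays in both channels and 0 of the 9 tested were called. Cd3d stood at -0.13 and Cd3g at -0.15, while 6 of the 9 lay above 0, at a list median of 0.012. The summed CD4 T cell markers, 7 of the 10, were higher with VIP on 4 of 6 arrays, with a mean difference of -0.029. Markers of 9 other cell types were measured too, and none of those tested was called. The list medians ran from -0.12 (erythroid) to 0.086 (CD8 T cell). The summed B cell markers, 7 of 8 tested, ran from 13.1 to 14.1 in log2 intensity with VIP and from 13.2 to 14.1 without, lower on 4 of 6 arrays, with a mean difference of -0.088. The summed plasma cell markers, 4 of 4 tested, ran from 12.1 to 13.1 with VIP and from 12.5 to 13.2 without, lower on 5 of 6 arrays, with a mean difference of -0.17. For the other cell types the mean difference of the summed markers ran from -0.12 (erythroid) to 0.125 (CD8 T cell), with neutrophil markers at 0.108. The part of these cell types in the diacylglycerol kinase values was not tested.

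Beside the family, 4 related lipid kinases were measured and none was called. Dgki, which encodes the iota kinase of type IV, stood at -0.060 ± 0.053 (SE, n = 4 arrays), and its sign changed with the scanner software's processed signals, with the authors' deposited value table and with outlier spots kept (0.081, 0.081 and 0.057). Agk, the mitochondrial acylglycerol kinase, stood at 0.036, the ceramide kinase gene Cerk at -0.052 and the sphingosine kinase gene Sphk2 at -0.017. Dgkk, Cerkl and Sphk1 were not tested, Dgkk because its probe was not well above background on any array.

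Genes listed as making, sensing or consuming DAG or phosphatidic acid, with some related enzymes, were put in 4 lists. These lists were drawn up with earlier results of these data known. Of these genes 43 were tested, and 4 of them rose and 1 fell. The 3.09% called over all genes is the background for this count. Without replicate 1 the count of 5 was 3, and it was also 3 without replicate 5. Among the phospholipases C that produce DAG, 0 of 9 were called, at a list median of -0.029, and 2 had an unadjusted p under 0.05 by limma, as did 16.7% of all genes. The lowest p was that of Plcd3, at -0.28 ± 0.071 (SE, n = 6, adjusted p = 0.0638 by limma). Its ratios were below 0 on the 3 arrays with VIP in Cy5, from -1.21 to -0.64, and above 0 on the other 3, from 0.19 to 0.45.

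In the list of DAG effectors and related proteins, 2 of 18 genes rose and 1 fell. Prkca, which encodes protein kinase C alpha, had ratios of 0.48 to 1.05 (median 0.90) on the 6 arrays, and its fitted ratio was 0.84 ± 0.071 (SE, n = 6, adjusted p = 0.000212 by limma). It was called under 18 of 19 alternatives. Prkce, which encodes protein kinase C epsilon, had ratios of 0.25 to 0.79 (median 0.34), all above 0, and a fitted ratio of 0.43 ± 0.062 (SE, n = 6, adjusted p = 0.00498 by limma). Its 2 dimmer probes gave 0.15 and 0.087 and were not called, and with the mean of its probes Prkce stood at 0.22 and was still called. Prkce was lost with processed signals, with the authors' deposited value table, with a normexp offset of 0, without replicates 3 and 6 together, and with unpaired channels.

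Prkd2, which encodes protein kinase D2, was the gene in the list of DAG effectors that fell, by 0.32 ± 0.042 (SE, n = 6, adjusted p = 0.00293 by limma). Its ratios differed by dye: -0.71, -0.70 and -0.56 with VIP in Cy5, and 0.026, -0.061 and 0.059 with VIP in Cy3. The slide means were -0.34, -0.38 and -0.25. Prkd2 was not called without the dye term, with processed signals, with the authors' deposited value table or with unpaired channels. Rasgrp1, a Ras activator that DAG recruits in T cells, missed the threshold at -0.26 ± 0.065 (SE, n = 5 arrays, adjusted p = 0.0634 by limma), with all 5 ratios below 0. Without replicate 2 or replicate 4 its brightest probe had values on too few arrays with VIP in Cy3. Another Rasgrp1 probe then stood for the gene, at -0.082 and -0.12. Without replicate 1, 3, 5 or 6 the brightest probe stayed, at ratios from -0.30 to -0.22. Rasgrp1 stood at -0.15 with the mean of its probes, and it was called, at -0.28, with slide as a block. It was named after its value was seen. The list median of the DAG effectors was 0.010. An unadjusted p under 0.05 by limma was found for 8 of the 18, beside 16.7% of all genes. That list too was drawn up with earlier results of these data known.

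Among the phosphatases of phosphatidic acid and the phospholipases D, 0 of 8 genes passed, at a list median of 0.030, beside 3.09% of all genes. An unadjusted p under 0.05 by limma was found for 1 of the 8, beside 16.7% of all genes. Lpin2, a lipin that removes the phosphate from phosphatidic acid, had the lowest p, at 0.18 ± 0.045 (SE, n = 6, adjusted p = 0.0634 by limma), with 6 of 6 ratios above 0, and stood at 0.11 with the mean of its probes. Among the other users of DAG and phosphatidic acid, 2 of 8 genes rose, at a list median of 0.051, beside 1.72% of all genes. Both encode enzymes that turn DAG into triacylglycerol. These lists, too, were drawn up with earlier results of these data known. Dgat1 rose by 0.35 ± 0.061 (SE, n = 6, adjusted p = 0.0134 by limma), with ratios from 0.067 to 0.52, and its other probe gave 0.46 and was called as well. Dgat2 rose by 0.27 ± 0.048 (SE, n = 6, adjusted p = 0.0124 by limma), with ratios from 0.17 to 0.40, and its other probes gave 0.14 and 0.17 and were not called. Dgat1 and Dgat2 were both lost without replicate 1 or 5, with a normexp offset of 0, with processed signals, with the authors' deposited value table, without the dye term and with unpaired channels. Dgat2 was also lost with the mean of its probes.

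**Figure D4:**
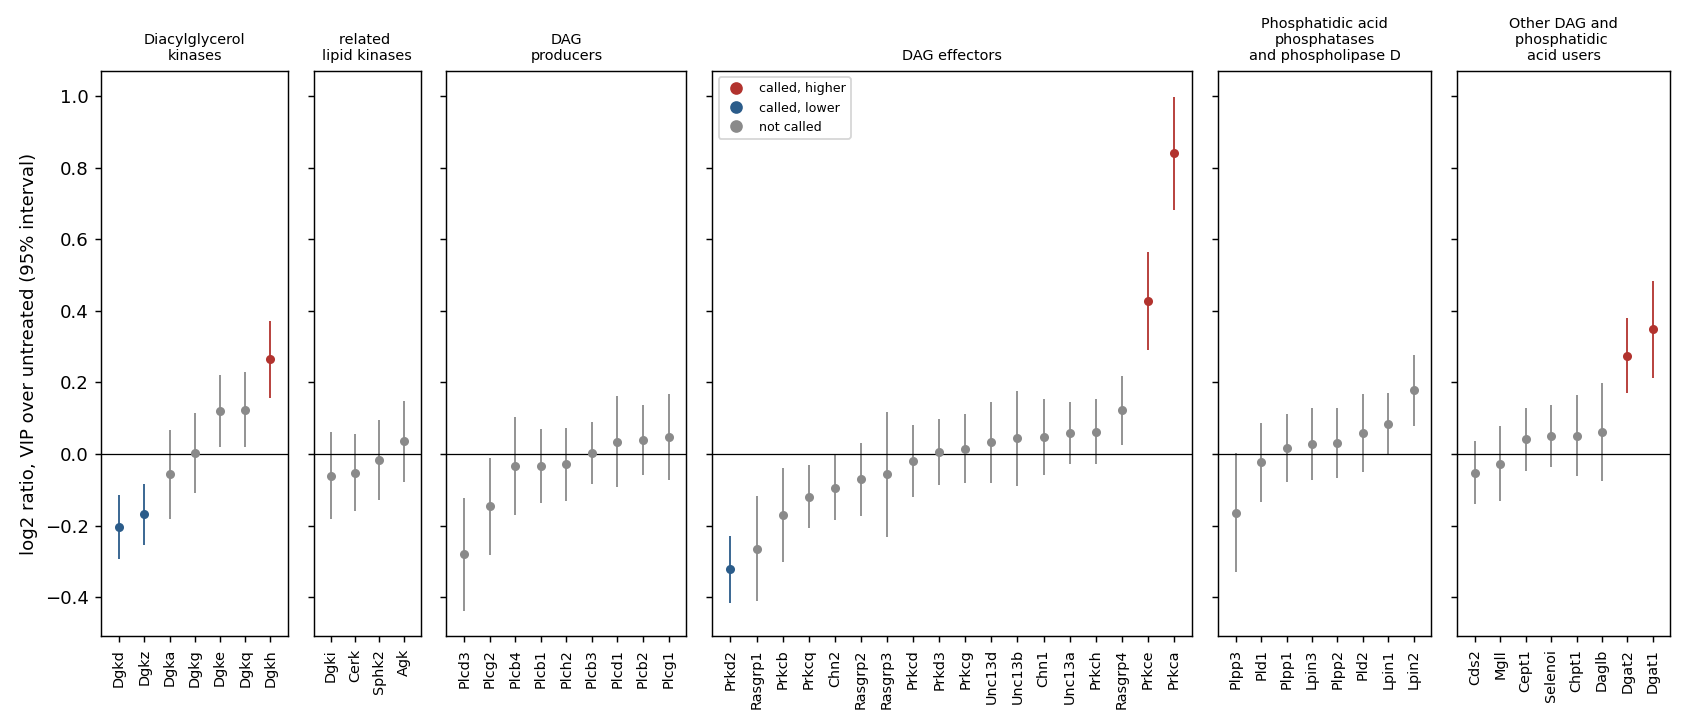
Fitted log2 ratio with its 95% interval for the 7 diacylglycerol kinase genes, 4 related lipid kinases and the 43 DAG pathway genes tested, each panel ordered by value (red, called and higher; blue, called and lower; grey, not called). The kinases lie between -0.20 and 0.26, and Prkca is the highest gene shown, at 0.84.

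Genes whose ratios moved with those of Dgkz from array to array were looked up among 17201 genes measured on all 6 arrays, after the dye effect was removed. The Dgkz ratios then ran only from -0.213 to -0.13, so there was little movement to follow. The highest Pearson r over the 6 arrays was 0.997 for the probe named NAP045049-1, followed by 0.995 for Ap1s2, a subunit of the AP-1 clathrin adaptor, and 0.993 for the probe A_51_P410404. Among so many genes 90 had an r above 0.95, and these points share the arrays, so the values are a description. For Dgka, measured on 4 arrays, no such list could be made.

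VIP receptors signal through cyclic AMP, whose transcription factor CREB is known to bind TGACGTCA, so the RefSeq promoter windows of GRCm38.p6, from 250 bases before to 50 after a start site, were searched for these letters on both strands. All 8 genes had a window, 14 in all, and 0 of the 14 held TGACGTCA, beside 1.79% of 32851 windows of all genes. The shorter form TGACG, which is part of the longer motif, was in 4 of the 14 on either strand, beside 20.8% of all windows. They belonged to Dgka, whose 2 windows overlap at the same match, to Dgke and to 1 of the 3 windows of Dgkh. The stretches are shown with the match in capitals, CGTCA being TGACG read on the other strand.
Dgka, chr10:128744085-128744113, minus strand: cgggcagtgtgtCGTCAggagctgggcgg
Dgke, chr11:89060783-89060811, minus strand: aagttgtgggcgCGTCAggcccctcccag
Dgkh, chr14:78644626-78644654, minus strand: caatgatgatgaTGACGacgacgacaatg
The windows of Dgkb, Dgkd, Dgkg, Dgkq and Dgkz held neither form. These matches are descriptions of letters, and their absence says nothing about the factor.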

How the data were processed

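Transcript abundance was measured on 6 2-colour arrays in VIP-treated and untreated CD4 T cells. Spot intensity values stand in the deposited scanner tables, made with Agilent Feature Extraction 9.5.1.1, with probe positions on mm9 (NCBI 37), per the file headers. The authors' deposited value table holds a log10 ratio per spot that equals the scanner's within 4.8e-06, turned so that positive is higher with VIP, and served as an alternative. The family and all gene lists were chosen with earlier results of these data known.

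Mean signals were corrected with normexp on the median local background (offset 50), controls and outlier-marked spots (1.93% to 8.96% an array) were left out, and arrays were normalized within themselves (loess; limma 3.58.1, R 4.3.3). Spots of a probe were averaged. Kept probes were well above background on at least 3 of 6 arrays in the channel of either treatment and had values on at least 2 arrays per dye orientation. The brightest kept probe stood for its gene. Names were updated by RefSeq accession for 24844 of 41174 probes (60.3%). The limma model fitted log2 VIP over untreated with a dye term, 2-sided, with Benjamini-Hochberg adjustment over all 19225 genes or 27454 probes. A run of the model on simulated data drew noise independently for each gene and array, so it cannot speak to effects that the genes of an array share. The pairing of VIP-treated and untreated samples comes from the design, since both share an array. Nothing says that replicates came from separate cultures beyond the labels' word biological. Median Cy3 mean signals were 83.6 to 108 and Cy5 148 to 235, and the number of arrays limits the precision. Named were all 8 members with their probes, 7 related kinases, and from each pathway list up to 5 called genes per direction or the 1 of lowest p, and the 3 genes most like Dgka and Dgkz. Genes outside this rule are said to be.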

Additional observations from a re-analysis of the deposited data

How the results depend on the processing

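Among the diacylglycerol kinases and the pathway genes followed by name, none that was called, as reported or under an alternative, changed its sign; Dgkg, called nowhere, ran from -0.038 to 0.033. The pairing within arrays mattered most: with the 12 channels treated as unpaired samples, without the replicate block, 5 genes and 5 probes were called, with 0 diacylglycerol kinases and 0 pathway genes. As reported there were 594 genes and 791 probes, 3 kinases and 5 pathway genes. Leaving out 1 replicate at a time gave 247 to 461 genes, 313 to 599 probes, 0 to 2 kinases and 3 to 5 pathway genes, with fewest genes without replicate 5 (247), replicate 1 (281) and replicate 6 (351). Processed signals gave 38 genes, 57 probes, 0 kinases and 1 pathway gene, and 41 genes, 58 probes, 0 kinases and 1 pathway gene were called with the authors' deposited value table. A normexp offset of 0 gave 133, 174, 0 and 2, and leaving out the dye term 124, 176, 0 and 2. Median centring gave 308 genes, 452 probes and 1 kinase, and leaving out replicates 3 and 6 together 324, 416 and 0. With outlier spots kept, 1 kinase was called. The share of called genes higher with VIP was 55.7% as reported, 68.2% with median centring, 66.2% with the offset of 0, 76.3% with processed signals and 75.6% with the authors' table. The 1 alternative chosen after seeing the data, outlier spots kept for the loess curve only, gave 567 genes and lost Dgkz. The number of arrays limits the precision, at a median standard error of 0.048 for a log2 ratio.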

Other observations

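The enzymes that build phosphatidic acid without a diacylglycerol kinase, by adding acyl chains to glycerol phosphate, were looked up in a list written after the data were seen. Gpat3, a glycerol phosphate acyltransferase, rose by 0.92 ± 0.065 (SE, n = 6, adjusted p = 6.49e-05 by limma). Its ratio was 0.47 on replicate 3 and at least 0.88 on the other arrays, and a second probe gave 1.05. Gpat3 was called under 19 of 19 alternatives. It was the 1 called gene among the 8 tested of 9 in this list, beside 3.09% of all genes. Gpat2 stood at -0.18, Gpat4 at 0.015, and the lysophosphatidic acid acyltransferases Agpat1, Agpat2, Agpat3, Agpat4 and Agpat5 lay between -0.082 and 0.11. Of 10 phosphoinositide kinases on the way to the phospholipase C substrate PIP2, such as Pip5k1a and Pi4ka, 0 were called by limma. The median of that list was -0.001.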
